A study of Mus musculus with 4 samples.

Results

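Shared peaks inside gene bodies are regions bound by Pcbp1 in both pluripotent states whose Naive summits lie within protein-coding genes but away from gene ends. A peak of the Naive list was taken when it overlapped a peak of the EpiLC list by 1 bp or more, and its summit lay in an mm10 RefSeq protein-coding gene body and more than 1 kb from every protein-coding gene end. This gave 347 members among 12132 Naive peaks, or 20.9% of the 1657 Naive peaks found in both lists. The other shared peaks were 710 at gene ends and 600 elsewhere. Members were chosen by the peak calls and summit positions of both libraries, so their enrichments are given as a description with no test.

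The cells were E14 Tg2a mouse embryonic stem cells, a single line. Naive cells were kept for 3 passages in serum-free N2B27 medium with LIF, the MEK inhibitor PD0325901 at 1 uM and the GSK3 inhibitor CHIR99021 at 3 uM. Primed epiblast-like cells (EpiLC) were made from such cells on fibronectin over 48 hours with bFGF at 12 ng/ml, Activin A at 20 ng/ml and 1% KOSR. Each state had 1 Pcbp1 chromatin immunoprecipitation library and 1 input library, and the labels give no genetic change in either. The identity of the cells could not be checked against marker expression, since only peaks were measured here.

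Pcbp1 is a KH-domain protein that binds C-rich RNA and single-stranded C-rich DNA. It is known as a regulator of splicing, RNA stability and translation, as an iron chaperone, and as a nuclear factor found at some promoters. In gene bodies, sites of regulatory proteins are often internal promoters and enhancers, many of which lie in long introns near the start of a gene.

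Members were found at internal transcript starts at a higher rate than gene-body DNA at large. RefSeq promoter windows (GRCm38.p6), which run from 250 bases before to 50 after a transcript start, were at hand for the chromosomes of 338 members. Of these, 40 had the Naive summit within 250 bp of a start (11.8%, 95% exact binomial interval 8.59 to 15.8). Of the gene-body bases that the rule allows, 0.323% lie as near to a start. The share was 7.20% (6.30 to 8.18) for the 3002 gene-body peaks of the Naive list alone and 5.09% (3.46 to 7.19) for the 589 of the EpiLC list alone. The difference between these peak sets was not tested. In 33 of the 40 the start belonged to the host gene itself, as a transcript that begins inside the gene, and in 7 to another gene. Of the 33, 21 summits lay before the start and 12 at or after it, at a median distance of 116 bp.

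The 250 bases before 5 of these internal starts are shown because their members span the range of Naive to EpiLC enrichment. They were chosen after their values were seen, as the lowest and highest ratios of Naive to EpiLC fold and the highest enrichment in both, among members with the summit before a start of their own gene. Each runs 5′ to 3′ towards the start. Capitals mark CCCCC, the kind of C-run that Pcbp1 is known to bind, and CCAAT, a common promoter motif, on either strand.
Grrp1 (chr4:134254107-134254356, minus strand): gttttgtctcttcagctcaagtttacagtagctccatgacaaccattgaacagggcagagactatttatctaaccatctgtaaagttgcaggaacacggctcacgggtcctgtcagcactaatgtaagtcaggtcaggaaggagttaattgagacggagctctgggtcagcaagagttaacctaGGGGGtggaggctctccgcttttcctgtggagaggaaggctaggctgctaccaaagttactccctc
Dnmbp (chr19:43879769-43880018, minus strand): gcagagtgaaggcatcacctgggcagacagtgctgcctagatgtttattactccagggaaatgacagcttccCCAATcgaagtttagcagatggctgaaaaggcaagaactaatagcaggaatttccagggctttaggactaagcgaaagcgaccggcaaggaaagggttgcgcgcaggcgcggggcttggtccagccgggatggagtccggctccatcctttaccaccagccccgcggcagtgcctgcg
Sephs1 (chr2:4882588-4882837, plus strand): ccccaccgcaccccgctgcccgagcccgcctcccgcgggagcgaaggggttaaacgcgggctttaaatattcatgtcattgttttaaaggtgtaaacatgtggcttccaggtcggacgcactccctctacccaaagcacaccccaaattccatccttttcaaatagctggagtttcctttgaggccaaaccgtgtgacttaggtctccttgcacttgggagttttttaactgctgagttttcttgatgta
Sp2 (chr11:96977689-96977938, minus strand): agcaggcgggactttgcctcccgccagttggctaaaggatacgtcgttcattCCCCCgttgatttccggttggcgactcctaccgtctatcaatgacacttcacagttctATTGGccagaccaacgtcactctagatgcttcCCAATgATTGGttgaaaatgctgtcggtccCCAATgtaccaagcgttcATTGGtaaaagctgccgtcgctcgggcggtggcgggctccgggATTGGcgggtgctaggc
Gemin6 (chr17:80224201-80224450, plus strand): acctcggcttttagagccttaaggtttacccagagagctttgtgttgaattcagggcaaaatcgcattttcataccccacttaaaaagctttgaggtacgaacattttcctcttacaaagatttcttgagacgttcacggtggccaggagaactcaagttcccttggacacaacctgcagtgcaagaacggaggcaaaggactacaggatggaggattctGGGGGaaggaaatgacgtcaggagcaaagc

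The Sp2 sequence held 6 copies of CCAAT in 250 bases and 1 C-run, whereas Dnmbp held 1 CCAAT and Sephs1 neither motif. Grrp1 and Gemin6 each held 1 C-run on the opposite strand. Sp2 encodes a zinc finger factor of the Sp family, and its member (chr11:96977515-96978038) had its summit 105 bp before the start. Its fold enrichment, the authors' value for each peak, was 15.2 in Naive (12.2 to 18.7, a 95% interval of counting error) against 4.39 (3.64 to 5.26) for EpiLC, and the intervals were apart. Gemin6, of the SMN complex that assembles splicing particles, had 6.19 (4.24 to 8.76) and 2.75 (2.08 to 3.58), also apart. Grrp1 was the reverse, with a Naive fold of 4.64 (3.16 to 6.60) below an EpiLC fold of 10.8 (9.11 to 12.7). Dnmbp, which encodes an activator of the GTPase Cdc42, had 7.81 (5.76 to 10.4) and 10.1 (8.50 to 11.9) at a summit 13 bp before its start. Its intervals overlapped, as did those of Sephs1 at 5.25 (3.55 to 7.51) and 6.29 (4.93 to 7.91).

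Over the 40 windows nearest these summits, sequence was rich in G and C, with a median of 61.3% (quartiles 58.3 and 63.8) and 19.5 CG dinucleotides. All 32851 windows of the table had medians of 52.7% and 7, and the 357 windows at shared gene-end peaks had 59.0% and 21. CCCCC on either strand, which can overlap CCCTCCC only in part, was found in 28 of 40 windows (70.0%, 53.5 to 83.4), against 51.04% of all windows and 60.8% at shared gene-end peaks. CCCTCCC was found in 20.0% (9.05 to 35.6) against 21.95% of all windows. GGGCGG, the core of Sp-factor sites, was in 47.5% (31.5 to 63.9) against 35.7% of all windows and 58.8% at shared gene-end peaks. CCAAT was in 32.5% (18.6 to 49.1) against 37.4% and 29.4%. TATAAA was in 0 of 40 windows (interval up to 8.81%), in 13.6% of all and in 9.52% at shared gene-end peaks. Windows of the same gene can overlap, and a match says only that the letters are present.

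**Figure D1:**
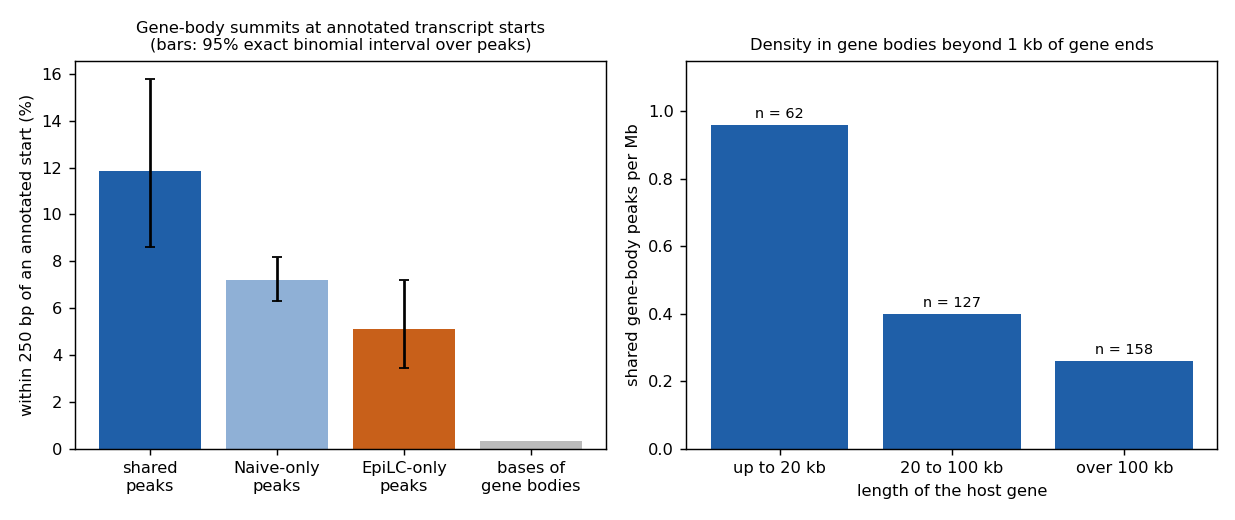
Left, percent of gene-body summits within 250 bp of an annotated transcript start for shared, Naive-only and EpiLC-only peaks, with 95% exact binomial intervals, beside the percent of gene-body bases that lie as near. Right, shared gene-body peaks per Mb of gene body beyond 1 kb of gene ends, by length of the host gene. Shared peaks stand at 11.8% against 0.323% of bases, and their density falls from 0.961 per Mb in genes up to 20 kb to 0.260 in genes over 100 kb. The density of all Naive gene-body peaks, not drawn, also falls with gene length.

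The 347 members lay in 322 protein-coding genes, 1.47% of the 21887 in the table. One member each was held by 300 of them, 17 held 2, and 5 held 3 or more, while 5 members lay in a pair of overlapping genes. Hosts were long, with a median of 81.95 kb against 17.2 kb for all protein-coding genes. Of genes over 100 kb, 5.60% were hosts, against 1.60% of genes of 20 to 100 kb and 0.540% of shorter ones. Per base the order was turned round: members numbered 0.961 per Mb in genes up to 20 kb (62 members), 0.401 in genes of 20 to 100 kb (127) and 0.260 in genes over 100 kb (158). All Naive gene-body peaks, shared or not, numbered 430, 1449 and 1574 over the same 64.5, 317 and 607 Mb. Their density fell with gene length too, so the fall is not particular to members.

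Strand was known for the hosts of 270 members. The first 20% of the gene, counted from its 5′ end, held 90 of them (33.3%, 27.7 to 39.3), and the last 20% held 32 (11.9%, 8.25 to 16.3). The stretches between, each of the same length, held 64, 35 and 49. The rule leaves out 1 kb at each gene end, so the first and last stretches have fewer bases open to members. The same shares are not given for other gene-body peaks, so whether this spread is particular to members is not known here. The median distance from the 5′ end was 22.8 kb, with 38 members between 1 and 2 kb and 139 beyond 20 kb.

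Enrichment at members was moderate and lay mostly higher in the Naive list. Fold enrichment is the pileup of fragments at the summit over the background that the peak caller set there. The Naive fold of members ran from 2.20 to 19.9, with a median of 4.71 (quartiles 3.99 and 5.99). Over all shared peaks the median was 4.996. The EpiLC fold ran from 1.77 to 26.8, with a median of 3.52 (quartiles 2.95 and 4.68), against 3.35 over all shared peaks. The 95% intervals of these medians overlapped in both lists (Naive 4.56 to 4.98 and 4.83 to 5.07, EpiLC 3.37 to 3.68 and 3.29 to 3.40). Members are themselves part of all shared peaks. At shared gene ends the medians were 5.52 (5.39 to 5.67) in Naive and 3.36 (3.29 to 3.44) in EpiLC. Elsewhere they were 4.45 (4.32 to 4.60) and 3.22 (3.12 to 3.35). The peaks of members were 418 bp wide in Naive and 332 bp in EpiLC at the median, and their summits lay 44 bp apart (quartiles 15.5 and 101), against 47 bp over all shared peaks.

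The background solved from the deposited values differed between the lists. The lowest background in a list was 4.004 fragments in Naive and 7.43 in EpiLC, and the median summit pileup of members was 28 and 50. The ratio of Naive to EpiLC fold is therefore read only beside the same ratio over all shared peaks, and no fold shows a change between states. It had a median of 1.32 (interval 1.27 to 1.41) for members, 1.46 (1.43 to 1.50) over all shared peaks, 1.62 (1.57 to 1.67) at gene ends and 1.39 (1.35 to 1.44) elsewhere. The local background moved with it: it was over 1.5 times the lowest of its list at 71.2% of members in EpiLC and 23.9% in Naive, and at 85.9% of shared gene-end peaks in EpiLC and 14.8% in Naive. With the summit pileup over the lowest background of its list in place of the fold, the median ratio was 1.05 for members and 1.09 both over all shared peaks and at gene ends.

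The higher fold was in EpiLC for 86 members (24.8%, 20.3 to 29.7), against a background of 15.1% over all shared peaks. With scaled pileups these shares were 42.1% and 37.4%. A Naive fold at least 2 times the EpiLC fold was found at 50 members, 14.4% against 20.3% of all shared peaks. An EpiLC fold at least 2 times the Naive fold was found at 7 members, 2.02% against 0.483%. By fold these were 7 of the 8 such peaks in the whole shared set. No such count is given for scaled pileups. The lowest scaled ratio was 0.249 for members, 0.247 at shared gene ends and 0.284 elsewhere. In the same order the lowest ratios of folds were 0.213, 0.253 and 0.552. By scaled pileups, then, a gene-end peak lay as far towards EpiLC as any member. Counting intervals were apart with EpiLC higher at 12 members, 3.46% against 1.09%, and 12 of all 18 such shared peaks were members. They were apart with Naive higher at 71 members, 20.5% against 29.1%. With 1 library per state these shares describe the peak lists, and none was tested.

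**Figure D2:**
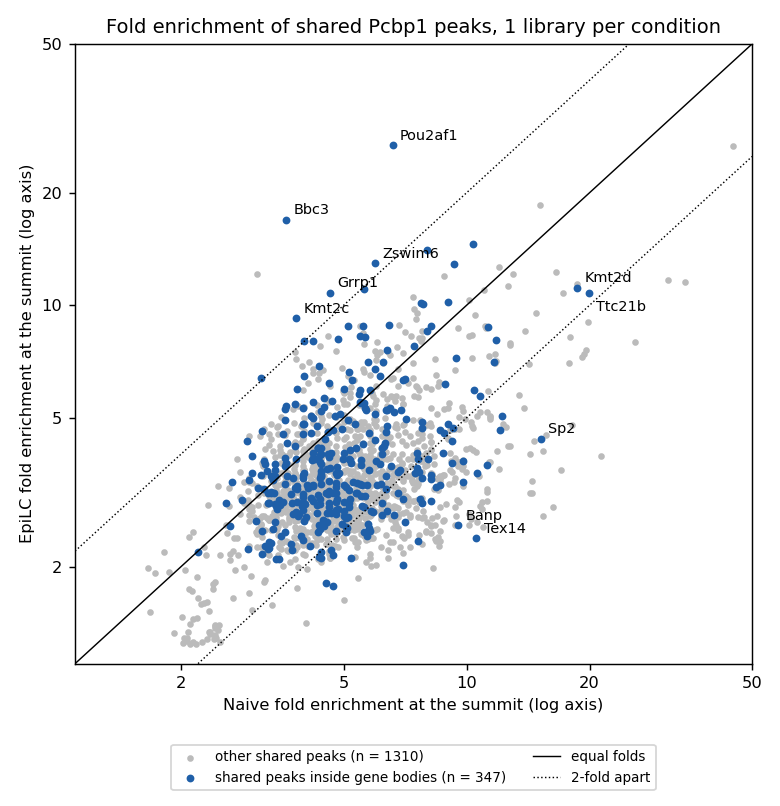
Fold enrichment of all shared peaks in Naive (horizontal, log axis) and EpiLC (vertical, log axis), with the 347 members in blue and the rest in grey. The solid line marks equal folds and the dotted lines folds 2 times apart. Of the 8 peaks on or beyond the upper dotted line 7 are members, with Bbc3 and Pou2af1 the farthest out. By scaled pileups, not drawn, the lowest ratio was 0.249 for members and 0.247 at shared gene ends.

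The members with the highest enrichment in both lists were ranked by the lower of the 2 folds. Kmt2d, a histone H3K4 methyltransferase gene (chr15:98871931-98872569), had a fold of 18.7 (15.3 to 22.6) for Naive against 11.1 (9.62 to 12.8) for EpiLC, at a summit 1800 bp into the gene. Ttc21b, whose product carries cargo in cilia (chr2:66189175-66189567), had 19.9 (17.3 to 22.8) and 10.8 (9.51 to 12.3). In both genes the intervals were apart with Naive higher. Mbd2, which encodes a reader of methylated DNA, had 10.4 (7.79 to 13.6) and 14.6 (12.3 to 17.2), and its summit lay 1020 bp from the gene end. Mettl7a1 followed with 9.33 (7.62 to 11.3) and 12.9 (11.1 to 14.9). Both pairs of intervals overlapped.

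The next was Il1rapl1, a synaptic adhesion gene on the X chromosome, with a Naive fold of 8.99 and an EpiLC fold of 10.2. Msl1, of a histone acetyltransferase complex, had 8.20 and 8.80, and Fhad1 had 11.8 and 8.07. Ctnnd2, the gene of a neural catenin, had 7.99 and 8.54. The intervals of these 4 overlapped. The last of the 10 was Tcf7l2, a transcription factor of Wnt signalling (chr19:55743409-55743950), whose EpiLC fold of 14.1 (11.7 to 16.8) stood apart from the Naive fold of 7.99 (5.74 to 10.9).

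**Figure D3:**
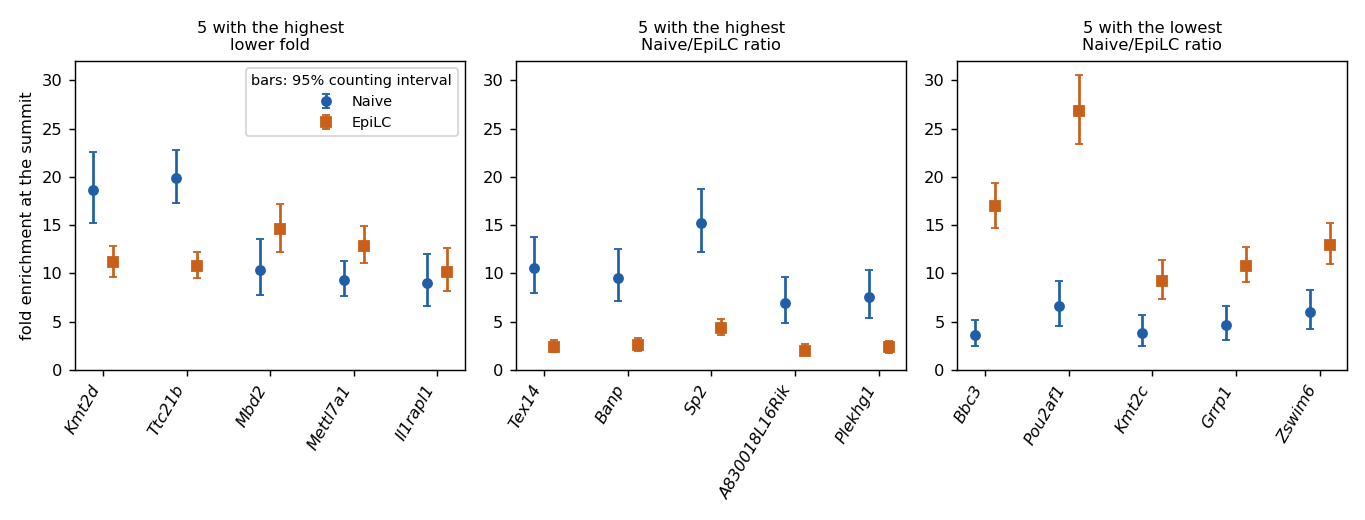
Fold enrichment at the summit in Naive (circles) and EpiLC (squares) with 95% counting intervals, for the 5 members highest in both lists and the 5 at either end of the Naive to EpiLC ratio. Kmt2d and Ttc21b lead the first panel, and Pou2af1 in the last panel has the highest EpiLC fold at 26.8.

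The EpiLC fold exceeded the Naive fold most at Bbc3. This gene encodes Puma, a BH3-only inducer of apoptosis, and its member (chr7:16312855-16313110) had 3.61 (2.44 to 5.16) in Naive from a pileup of 28 and 16.9 (14.7 to 19.4) in EpiLC from 209. Pou2af1, a coactivator gene of B lymphocytes, followed with 6.59 (4.57 to 9.23) and 26.8 (23.4 to 30.5), from pileups of 32 and 225. Its local background was the lowest of the list in both libraries. Kmt2c, a paralogue of Kmt2d, had 3.82 (2.46 to 5.70) and 9.23 (7.40 to 11.4); by scaled pileups its ratio was 0.480 and that of Kmt2d 0.996. Zswim6 had 5.98 (4.21 to 8.25) and 12.9 (10.9 to 15.2).

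The other members with intervals apart and EpiLC higher were Grrp1, Tcf7l2, Epb41, Chd9, Spaca6, Nox4, Ppp1r10 and Pde7b. Chd9, a chromodomain helicase gene, had 3.996 for Naive against 8.05 for EpiLC, and Nox4, an NADPH oxidase gene, had 4.20 and 8.02. Epb41, for a protein of the membrane skeleton, had 3.13 and 6.37. Ppp1r10, for a nuclear regulator of protein phosphatase 1, had 5.13 and 8.81. Scaled pileups use the same counts as the folds that chose these 12, so they are no separate support. They were higher in EpiLC at 42.1% of all members and 37.4% of all shared peaks, and at 11 of the 12. The exception was Pde7b, a cyclic AMP phosphodiesterase gene, whose Naive background was 3.51 times the lowest of its list and whose scaled ratio was 1.45.

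At the other end, the Naive fold exceeded the EpiLC fold most at Tex14, needed for intercellular bridges of germ cells, with 10.6 (7.95 to 13.8) and 2.39 (1.82 to 3.07). Banp, the gene of a DNA-binding nuclear protein, had 9.54 (7.13 to 12.5) and 2.58 (1.94 to 3.36), at a summit that also lies on the lncRNA gene Gm27011. After Sp2 came A830018L16Rik with 6.98 (4.90 to 9.68) and 2.02 (1.51 to 2.66), and Plekhg1 with 7.59 (5.41 to 10.4) and 2.35 (1.79 to 3.03). All 5 had intervals apart. The EpiLC background here was raised, from 2.68 times its lowest at Banp to 3.45 at Sp2, while that of Naive stayed between 1 and 1.20. Over the 50 members with at least 2 times the fold in Naive, the median scaled ratio was 1.30 and 44 were above 1. Over all members the median was 1.05, with 201 of 347 above 1. Over all shared peaks it was 1.09, with 1037 of 1657 above 1. The scaled ratio uses the same summit pileups as the folds that chose the 50, so it is no separate support.

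Tex14 held more members than any other gene, 6 over 48464 bp of its 150811 bp. It had 6 Naive and 7 EpiLC peaks in all, so every Naive peak in the gene was shared. The Naive folds along the gene were 10.6, 6.34, 8.61, 8.17, 8.74 and 9.79, and the EpiLC folds at the same places 2.39, 3.50, 3.30, 3.52, 4.02 and 3.84. Intervals overlapped only at the second peak and were apart, with Naive higher, at the other five. The Naive summit pileups were 34 to 52 fragments and those of EpiLC 52 to 87. The EpiLC background there was 1.90 to 3.24 times its lowest and the Naive background 1 to 1.13 times. Scaled pileup ratios ran from 0.863 to 1.66.

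**Figure D4:**
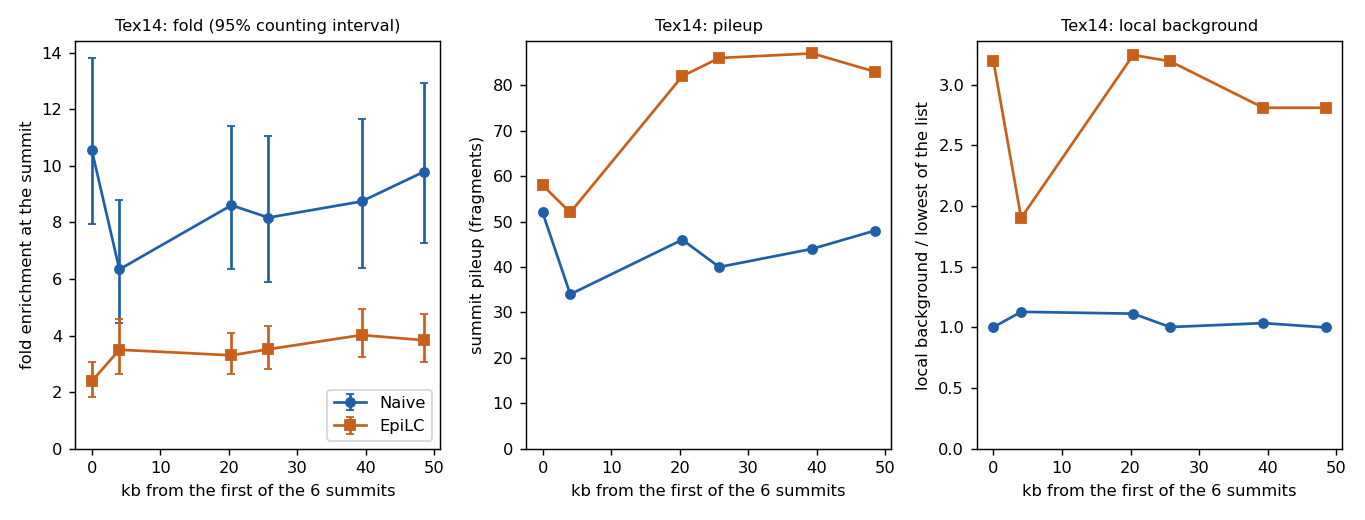
The 6 members in Tex14 by distance in kb from the first summit, for Naive (circles) and EpiLC (squares): fold enrichment with 95% counting intervals, summit pileup in fragments, and local background relative to the lowest of the list. Naive folds are higher at all 6, EpiLC pileups are higher at all 6, and the EpiLC background is raised at each. The pileups are not scaled, and the lowest background is 4.004 fragments in Naive and 7.43 in EpiLC. Scaled pileup ratios of Naive to EpiLC lie on both sides of 1, from 0.863 to 1.66.

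Chd9, Iqgap1, Sntb1 and A830018L16Rik held 3 members each. In Iqgap1, the gene of a scaffold protein of the actin cytoskeleton, the EpiLC fold ran from 2.71 to 8.29 within 1 gene while the Naive fold stayed between 5.12 and 6.28. Sntb1, of the dystrophin complex, spread likewise, from 2.47 to 8.78 in EpiLC and from 4.25 to 5.58 in Naive. Chd9 ran from 3.29 to 8.05 and from 3.996 to 4.49. A830018L16Rik ran from 2.02 to 3.34 in EpiLC and from 4.40 to 6.98 in Naive. The wider range was in EpiLC in Iqgap1, Sntb1 and Chd9. In A830018L16Rik it was in Naive by the difference of the folds and in EpiLC by their ratio.

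Chromatin regulators and splicing factors gave the most listed hosts, 4 each. Of 61 chromatin regulator genes (median length 64.997 kb) 4 held a member, 6.56% against 1.47% of all genes. They were Kmt2d, Mbd2, Kmt2c and Kdm6b, the gene of an H3K27 demethylase, which had 2 members and reached 9.40 in Naive and 7.22 in EpiLC. Of the Wnt list 2 of 30 held a member (6.67%): Tcf7l2 and Rnf43, a ubiquitin ligase gene that restrains Wnt receptors, at 4.29 and 4.76. Of 30 genes of the TGF-beta family pathway 1 held a member (3.33%). This was Foxh1, a partner of Smad proteins, at 5.52 and 3.73. No list was tested, and long genes were hosts more often.

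Of the pluripotency lists, the core list had hosts in 2 of 18 genes (11.1%, beside 1.47% of all genes): Sall4, a zinc finger factor of stem cells, with a Naive fold of 5.73 (3.90 to 8.15) beside an EpiLC fold of 7.06 (5.76 to 8.57), and Tcf7l1, a repressor of Wnt targets, with 5.50 (3.74 to 7.81) and 5.94 (4.97 to 7.05). Both pairs overlapped. The Tcf7l1 summit lay 127 bp from the start of the lncRNA gene Gm31391. Of 30 primed genes 1 was a host (3.33%), Sox12, which had 3.996 and 4.82. Of 26 naive genes none held a member, although 7 had a gene-body peak in Naive and 0 in EpiLC, beside 10.7% and 3.80% of all protein-coding genes. The FGF and ERK list was alike, with 6 of 30 in Naive, 0 in EpiLC and no member.

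Among 48 splicing and hnRNP genes were 4 hosts (8.33%, beside 1.47% of all genes). They were Srsf1 at 5.37 in Naive and 4.14 in EpiLC, Hnrnpf at 4.41 and 3.60, U2af1 at 3.56 and 2.98, and Srsf10 at 2.93 and 3.41. The summits of Srsf1, U2af1 and Srsf10 lay 1072, 1312 and 1022 bp from the 5′ end, and that of Hnrnpf 17164 bp. None of the poly-C-binding protein genes in that list was a host. Of 75 ribosomal protein genes (median length 3.18 kb) 3 were hosts (4%): Rps2 at 3.63 and 3.49, Rpl38 at 5.90 and 2.80, and Rpl22 at 5.71 and 2.42. The Rpl22 summit lay 1 bp from the start of another gene, 9430083M05Rik.

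Of the amino acid lists, the serine and one-carbon genes had 1 host of 32 (3.13%, beside 1.47% of all genes). This was Gcat, of threonine and glycine breakdown, at 3.59 in Naive and 4.95 in EpiLC. Of 34 amino acid transporter genes 2 were hosts (5.88%): the mitochondrial aspartate-glutamate carrier Slc25a12 had 6.64 and 2.74 and Slc43a2 had 3.27 and 2.96. Tars2, the mitochondrial threonyl-tRNA synthetase, was 1 of 39 (2.56%) at 5.21 and 2.10. No member lay in the 46 other amino acid enzyme genes, the 52 genes of mTORC1 and the stress response, or the 26 of iron handling.

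Among genes of other lineages, 2 of 14 primitive endoderm genes held a member (14.3%, beside 1.47% of all genes). The median length of this list was 60.1 kb, and long genes were hosts more often. Dab2, an endocytic adaptor, had 3.996 and 2.65, and Lama1, a laminin gene, had 3.72 and 2.30. None of the trophectoderm (12), neuroectoderm (14), mesoderm (14), fibroblast (12) or liver and muscle (24) genes did. These lists had shorter genes, with median lengths from 4.03 kb (mesoderm) to 33.85 kb (fibroblast). Of 22 very long neuronal genes (median 1541 kb) 2 held a member (9.09%, beside 5.60% of genes over 100 kb). They were Macrod2 at 4.29 and 2.77 and Lrp1b, which held 2 members, at 4.17 and 5.05 and at 4.78 and 3.35. At the second Lrp1b member the local background was 3.51 times the lowest of its list in Naive and 3.96 times in EpiLC. None of these lists was tested.

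Other annotated genes lay under the summits of 29 members: 27 were lncRNA genes, 1 an antisense RNA gene and 1 a pseudogene. The same count was not made for other peaks or for gene-body bases, so the usual rate inside genes is not known here. By the lower fold the first were Kcnn2, a potassium channel gene with the lncRNA gene Gm32139 (6.99 in Naive, 6.30 in EpiLC), and Tcf7l1. Nectin1, a cell adhesion gene with Gm46108, had 5.47 and 5.50. Lemd1 with Gm29695 held 2 members, at 7.80 and 4.69 and at 5.32 and 4.82.

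Sharing was counted by position. Of 3453 Naive gene-body peaks 347 were shared, or 10.05% (9.07 to 11.1), against 13.7% of all Naive peaks and 18.5% (17.3 to 19.7) at gene ends. Of 956 EpiLC gene-body peaks 352 overlapped a Naive peak (36.8%, 33.8 to 39.97), against 66.7% (63.8 to 69.5) at gene ends. The share in genes up to 20 kb was 14.4% (11.2 to 18.1), in genes of 20 to 100 kb 8.76% (7.36 to 10.3) and in genes over 100 kb 10.04% (8.60 to 11.6). These differences were not tested. Shared Naive gene-body peaks had a median fold of 4.71 and unshared ones 4.40, while in EpiLC the medians were 3.50 and 3.60.

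At the edges of the rule, the members nearest to a gene end were G3bp2 with Gm46933 (1007 bp; 4.71 in Naive, 3.15 in EpiLC) and Cttn (1010 bp; 5.54 and 2.91). Just outside were Zc3h4 (972 bp; 7.61 and 4.55) and Birc3 (963 bp; 5.32 and 2.32). The shortest overlaps were 27 bp at Adam19 and 28 bp at Cdyl. The Naive gene-body peaks of Tex21 and Meikin missed an EpiLC peak by 21 and 30 bp, with Naive folds of 4.70 and 3.24. The widest members were in Ppp1r10 (3099 bp in Naive) and Slc25a12 (1663 bp). The rule places only the summit, and the Naive peak in Ppp1r10 (chr17:35915809-35918907) ran across the 5′ end of that gene at 35916512.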

How the data were processed

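The authors deposited 1 peak list per state, each from a single Pcbp1 library. Per the submitters' processing notes, fastp, Bowtie2, Picard and MACS2 were used with the mouse build GRCm38 (mm10). Versions, settings and the caller's control: not given in the sources used here. In the deposited lists each fold enrichment is the ratio of pileup to the background that the caller set, and the −log10 p and −log10 q are per peak (lowest −log10 q of 2.02 in both). The deposited score is 10 times the −log10 q, cut to a whole number, and was not used. The deposited summit offset, the remaining unit, placed each summit.

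Pileup and background were solved from fold, read as (pileup + 1) / (background + 1), and the Poisson p, which gave 1 matching whole pileup within 0.001 of the −log10 p for 100% of peaks in both lists. Intervals on folds are 95% Poisson intervals of the pileup, and those on medians use order statistics over peaks. All cover counting error only, and the depth of the libraries is unknown. A scaled pileup is the pileup over the lowest background of its list. Where several EpiLC peaks overlapped a member, the highest fold was used (3 members).

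Genes, transcript starts and sequences came from RefSeq tables of GRCm38.p6, and a host gene was one whose annotated span held the summit. Members on chromosome 18 had no entry among the starts. Motifs were searched on both strands. The members and 22 gene lists were chosen with earlier results of these data known. All list genes matched, 3 of them by an older symbol. Named were the 10 members with the highest lower fold, the 5 at each end of the ratio, the 5 genes with most members, up to 4 hosts per list, up to 5 members on other genes, and the members at the edges of the rule, of which 1 is not reported here. The code was tested on simulated data. With 1 library per state no test between states was possible. Python 3.11.15 with numpy 2.4.6, pandas 2.3.3, scipy 1.17.1 and matplotlib 3.10.9 was used.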

Additional observations from a re-analysis of the deposited data

How the results depend on the processing

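No paired analysis was possible because each state had 1 ChIP library. The alternatives to the rule were a 50% overlap, a −log10 q of at least 5, gene-end distances of 500 bp and 3 kb, a Naive list as short as the EpiLC list, both summits inside a gene body, pairing by the nearest summit, scaled pileups and, chosen after seeing the data, leaving out Tex14. The ratio of Naive to EpiLC fold stayed above 1 at the median in all of them. With the Naive list shortened, 154 members in 145 genes were left, 18.6% of shared peaks. Their median folds were 6.26 and 3.87, their median ratio 1.62, the share with EpiLC higher 17.5% and the median summit distance 31.5 bp, with 13 listed genes in place of 25. At a −log10 q of at least 5 the median folds were 5.12 in Naive and 3.76 in EpiLC. Members were 25.2% of shared peaks beyond 500 bp and 15.9% beyond 3 kb, where 10 listed genes were left. With scaled pileups the median ratio was 1.05 and the share with EpiLC higher 42.1%. A shorter list, a stricter q and another distance keep fewer or other peaks by construction. The cause of the shift with scaled pileups was not tested, and the background values that moved with it are given with that result. Without Tex14 the median ratio was 1.31.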

Other observations

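Genes of the BCL2 family were noticed among the hosts after the values were seen, so no list was tested. The genes of this family that are not hosts were not counted. No share can therefore be set beside the 1.47% of all genes that were hosts, and long genes were hosts more often. Besides Bbc3, the hosts noticed were Bcl2l1, which encodes the survival protein Bcl-xL, and Mcl1, another survival gene. The Naive fold at Bcl2l1 was 5.98 (4.07 to 8.50), beside an EpiLC fold of 6.77 (5.43 to 8.34). Mcl1 had 5.16 (3.43 to 7.47) and 2.95 (2.13 to 3.99), with the Naive summit 62 bp from an internal start of the gene. The intervals overlapped in both, unlike those of Bbc3.

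The hairpins of 2 miRNA genes lay under members. The same count is not given for other peaks, so the usual rate is not known here. Mir1894 lay under the peak in Ppp1r10, the widest member at 3099 bp in Naive, and Mir6546 under a peak in Fcgr3, an Fc receptor gene, with folds of 3.15 in Naive and 2.17 in EpiLC. Of the 12 members on the X chromosome, 0 had counting intervals apart (95% exact binomial interval up to 26.5% in either direction). Over all members 20.5% were apart with Naive higher and 3.46% with EpiLC higher. The X-linked members' median summit pileups were 21.5 in Naive and 33.5 in EpiLC, against 28 and 50 over all members. By scaled pileups the member most in favour of Naive was in Nr3c2, the mineralocorticoid receptor gene, at a ratio of 3.55 from pileups of 90 and 47.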
